A study of Mus musculus with 8 samples.

Results

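The genes examined here encode 10 proteins that bind histone H3 trimethylated at lysine 36 (H3K36me3), and the question was whether these genes carry the mark themselves and what became of it when its main methyltransferase was depleted. They are Msh6, Glyr1, Psip1, Hdgfl2, Brpf1, Mtf2, Phf1, Phf19, Zmynd11 and Morf4l1, listed by name for the role of their proteins, out of 21887 protein-coding genes placed on the mouse genome build mm10. Each gene was taken over its RefSeq span. In that span the H3K36me3 peaks of the knockdown and control lists were located, and their length, tag density and share of the gene were measured.

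H3K36me3 was profiled by ChIP-seq, which sequences the DNA bound to a modified histone, in mouse embryonic stem cells carrying a Setd2 knockdown that doxycycline switches on. Knockdown cells received 1 µg/ml doxycycline for 4 days, and control cells, labelled Dox -, received none, so an effect of doxycycline itself cannot be told apart from that of the knockdown. Cells of both conditions grew as spheres without feeder cells in serum-free medium with the MEK inhibitor PD0325901 (1 µM), the GSK3 inhibitor CHIR99021 (3 µM) and 1000 U/ml LIF. For each condition there were 2 ChIP and 2 input libraries (input is sonicated chromatin without antibody), 8 in all. The labels do not describe the knockdown sequence, its promoter or whether the line is 1 clone.

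Both replicates were merged before peaks were called, so each condition has 1 peak list, no spread between replicates could be measured and no test between conditions was possible. The caller kept 29416169 ChIP tags (mapped reads) in knockdown and 36244210 in control, and called 3040 peaks over 5.67 Mb in knockdown and 30634 peaks over 110.7 Mb in control. The control peaks matched the label of the cells. All 8 stem cell markers on a fixed list were marked in control, with 44.9% to 100% of their length under peaks, whereas all 3 primitive endoderm and all 4 fibroblast markers had no control peak. Of 3 trophoblast markers 1 had a control peak (Eomes, 39.8%), and of 3 neural markers 1 (Tubb3, 19.1%). Setd2 itself had no knockdown peak and 11 control peaks over 40.1% of its length, which describes its chromatin and not its transcript.

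Setd2 travels with elongating RNA polymerase II and deposits H3K36me3 over the bodies of transcribed genes. Reader proteins recognise the trimethylated lysine with an aromatic pocket that lies in a PWWP, chromo or Tudor domain. Through these domains the mark directs mismatch repair, histone acetylation and deacetylation, splicing and elongation control and Polycomb accessory factors to transcribed chromatin. H3K36me3 over a reader's own gene reflects transcription there and says nothing about binding by the reader.

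None of the 10 genes held a knockdown peak, and 8 of the 10 held a control peak. A gene counted as marked if its span held 1 or more peak midpoints. By the same rule, 4.95% of all protein-coding genes were called in knockdown and 41.2% in control. The 2 without a control peak were Phf19 and Zmynd11. In knockdown, 0 bp of every gene was covered, and in control the median gene of the 10 was covered over 79.4% of its length, where the median over all 21887 genes was 0 in both conditions. With the control list cut to its 3040 top-scoring peaks, as many as in knockdown, the readers' median control coverage was 29.5%, and Msh6 and Phf1 had no control peak. This cut went by the caller's score and not by tag density. In density the dropped peaks of Msh6 and Phf1 exceeded 91.9% and 89.8% of control peaks. Of all 9016 marked genes 10.6% also had a knockdown peak. A count of 0 among the 8 marked readers allows a share of up to 37.5% by counting error alone, so the readers are not separated from that background.

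**Figure D1:**
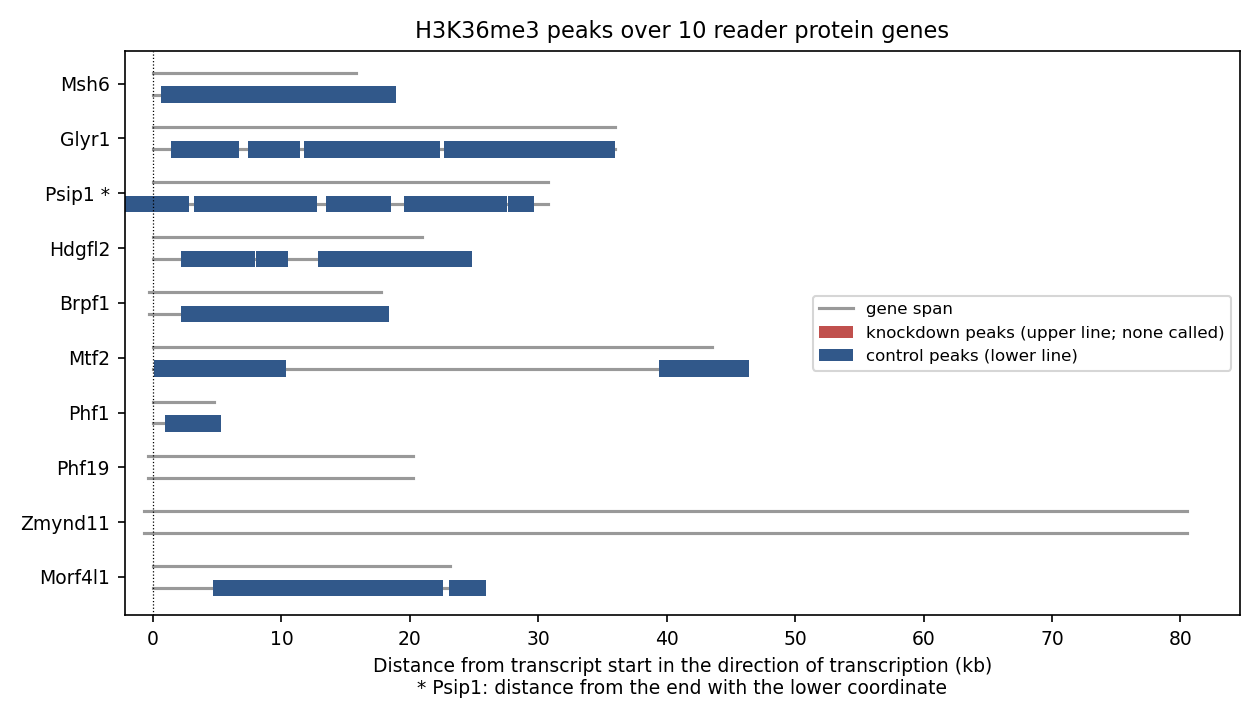
Map of the 10 genes, each drawn from its transcript start in kb (Psip1 from its end of lower coordinate), with the knockdown line above the control line and blue bars for control peaks. No knockdown peak is drawn because none was called; control peaks fill most of 7 genes, leave the middle of Mtf2 bare and are missing over Phf19 and Zmynd11.

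The PWWP domain, a small fold named for a run of prolines and tryptophans, is carried by 6 of the proteins. Msh6 is a mismatch repair protein whose PWWP domain brings it to H3K36me3. Its gene lies on chromosome 17 from 87975050 to 87990892 and had the highest covered share of the 10, 0% in knockdown and 96.1% in control. A single control peak of 18309 bp, longer than 99.2% of the control list, began 622 bp after the transcript start and ran 3088 bp past the 3′ end. It held 1124 tags, or 1.69 TPKM, the tags per kb for each 1000000 kept ChIP tags (95% exact Poisson interval 1.60 to 1.80, counting error only). The part past the end lay over the 3′ side of Fbxo11, a ubiquitin ligase subunit gene on the opposite strand that was covered over 0% in knockdown and 23.1% in control.

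Glyr1, a PWWP protein that helps polymerase pass nucleosomes and works with the demethylase Kdm1b, is encoded on chromosome 16 from 5013902 to 5049938 on the minus strand. It had no knockdown peak and 4 control peaks, which covered 92.3% of its 36037 bp. From the 5′ end, the control peaks measured 5324, 4026, 10588 and 13313 bp. Gaps of only 336 to 652 bp parted them, so that the marked stretch was nearly continuous from 1409 bp after the start to 11 bp before the 3′ end. The second from the 5′ end was the sparsest, at 1.34 TPKM, and the third the densest, at 1.81.

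Psip1 (LEDGF) tethers MLL complexes and other partners to transcribed chromatin, and Hdgfl2 is its close relative. Psip1, on chromosome 4 from 83455680 to 83486463, was covered over 0% in knockdown and over 89.4% in control, by 5 peaks of 2024 to 9602 bp at 1.45 to 1.63 TPKM. These 5 peaks were alike in density. Its span shares 17340 bp with Snapc3, a gene of a small nuclear RNA transcription complex that was covered over 0% in knockdown and 54.2% in control, and in that stretch the 2 genes cannot be told apart. The 13444 bp of Psip1 that no other protein-coding gene overlaps were covered over 83.5% in control.

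Hdgfl2, on chromosome 17 from 56079599 to 56100605, had no knockdown peak and 4 control peaks over 78.0% of its length. The first 3 from the 5′ end were 2393 to 3322 bp long and held 1.45, 1.08 and 1.14 TPKM, the last 2 values exceeding only 8.74% and 21.9% of control peaks. The fourth was of another size: 12007 bp with 818 tags, 1.88 TPKM, and the authors' fold over local background was 7.78. It began after a bare gap of 2275 bp, held 38.8% of the gene and ran 3848 bp past its 3′ end over Plin4, a lipid droplet gene on the opposite strand with 0% covered in knockdown and 41.3% in control.

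Brpf1, the scaffold of the MOZ and MORF histone acetyltransferases, lies on chromosome 6 from 113306863 to 113324862 and shares no base pair with another protein-coding gene. It was covered over 0% in knockdown and 86.2% in control. A single control peak of 16137 bp carried 1124 tags, and its 1.92 TPKM (1.81 to 2.04) were the most for any of the 10 genes and above 97.8% of control peaks. Zmynd11, whose paired bromodomain and PWWP domain recognise the mark on histone H3.3 and restrain elongation, was the exception among the PWWP genes. Over its 81179 bp on chromosome 13 from 9684836 to 9766014 there was no peak in either list, and the nearest lay 776 kb away in knockdown and 155 kb away in control. It was also the longest of the 10 genes, longer than 85.9% of all protein-coding genes.

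Morf4l1 (MRG15) reads the mark with a chromodomain and serves in the TIP60 acetyltransferase and Sin3 deacetylase complexes. Its gene on chromosome 9 from 90091669 to 90114820, minus strand, was touched by no knockdown peak and by 4 control peaks and was covered over 0% in knockdown and 77.5% in control. The mark started 4688 bp after the transcript start, near the median of 4322 bp over all marked genes. This was the farthest among the 7 marked readers with a known start. It opened with peaks of 1624 and 1265 bp whose scores of 53.68 and 50.88 in the authors' table were among the lowest of the list. They led into a peak of 14965 bp with 933 tags that held 64.6% of the gene. The fourth control peak had only 98 bp inside the 3′ end and 2815 bp beyond it.

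Mtf2, Phf1 and Phf19 are the Polycomb-like proteins, accessory subunits of PRC2, the complex that methylates H3K27, and read H3K36me3 with a Tudor domain. No knockdown peak touched the 3 genes, and their control coverage differed widely. Phf1, the shortest of the 10 genes (chromosome 17, 26933127 to 26937908), was covered over 0% in knockdown and 80.8% in control by a single peak of 4412 bp with 264 tags. This peak began 919 bp after the start, ran 549 bp past the 3′ end and reached 486 bp into Cuta, its neighbour on the opposite strand, which was covered over 0% in knockdown and 25.4% in control.

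Mtf2, on chromosome 5 from 108065660 to 108109219, had control peaks at its ends and none between. A peak of 10309 bp began 86 bp after the outermost transcript start, and a peak of 7045 bp lay across the 3′ end and continued for 2889 bp. The 28995 bp between them were bare, so the gene was covered over 33.2%, the lowest among the 8 marked genes and near the median of 37.9% over all marked genes. Both peaks were nonetheless dense, at 1.60 and 1.57 TPKM, above 87.4% and 85.4% of control peaks. Phf19 had no peak over its 20602 bp on chromosome 2 from 34893752 to 34914353, and the nearest lay 117 kb away in knockdown and 24.6 kb away in control.

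**Figure D2:**
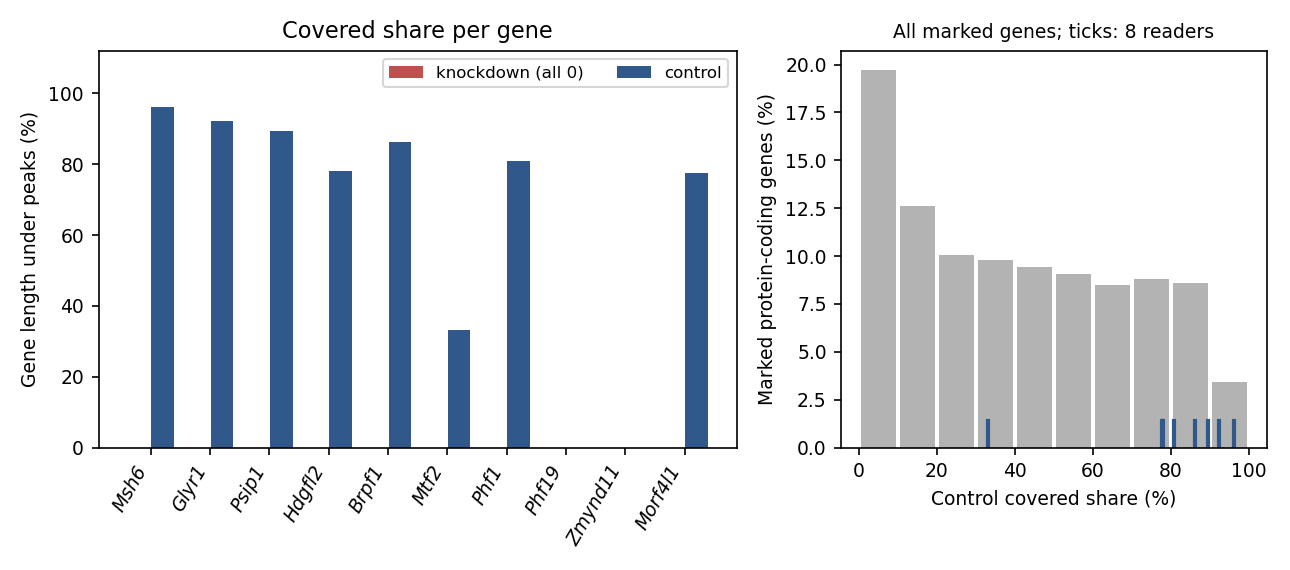
Left, percent of each gene's length under peaks, knockdown bars left of control bars (all knockdown values are 0). Right, the distribution of control covered share over the 9016 marked protein-coding genes, with a blue tick for each of the 8 marked readers; 7 ticks lie at 77.5% or higher and 1, Mtf2, at 33.2%.

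Read against all genes, the marked readers were thickly covered in control. Of the 10, 5 (Msh6, Glyr1, Psip1, Brpf1 and Phf1) had at least 80% of their length under control peaks, a class that held 5.26% of all protein-coding genes. Among marked genes alone, the class held 5 of the 8 readers and 1085 of all 9016. Msh6 exceeded 99.2% of marked genes in covered share, Glyr1 97.9%, Psip1 96.2% and Brpf1 93.6%, whereas Mtf2 exceeded 45.7%. None of these 5 readers had a knockdown peak, and 22.3% of all 1151 genes covered over at least 80% in control had one.

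The 22 control peaks that touched the readers were longer and denser than the control list as a whole. Their median length was 5184 bp and that of all control peaks 2451 bp. Peaks above 10 kb numbered 7 of the 22 (31.8%), and made up 4.98% of the whole control list. Summed over their length, the readers' peaks held 1.65 TPKM (1.62 to 1.69), and all control peaks held 1.48 (1.48 to 1.48).

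Peaks sat downstream of the transcript start and ran on to the gene end. Transcript starts and strands were available for 9 of the 10 genes, of which 7 were marked. No start of these 7 lay under a control peak, as was the case for all but 1.49% of 7238 marked genes. Counted from the outermost start, the first covered base lay 86 bp (Mtf2) to 4688 bp (Morf4l1) from the start, with a median of 1409 bp, and over all marked genes the median was 4322 bp with quartiles of 1757 and 13405 bp. The 3′ end was under a control peak in 6 of the 7, and in 47.8% of all marked genes. In those 6 the peak continued past the end by 549 to 3848 bp, with a median of 2852 bp, and in all marked genes with a covered end by a median of 1103 bp. In Msh6, Hdgfl2 and Phf1 that part reached a gene on the opposite strand, and whose mark it was cannot be told apart there.

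**Figure D3:**
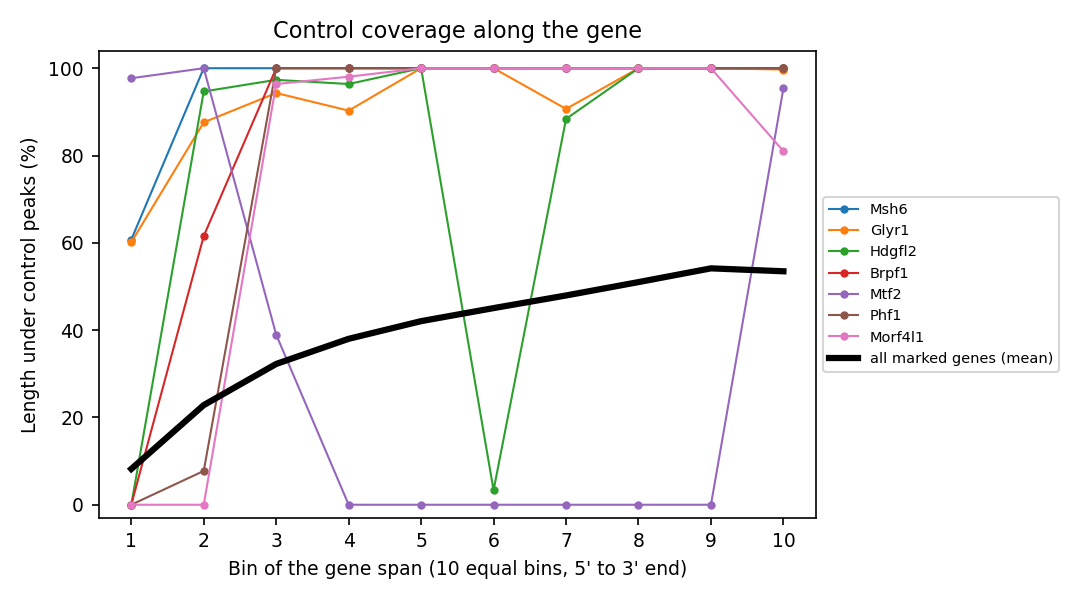
Percent of the gene span under control peaks in 10 equal bins, numbered 1 at the 5′ end to 10 at the 3′ end, for the 7 marked readers with a known strand (coloured lines) and as the mean over 6827 marked genes of 5 kb or longer (black). The black line climbs from 8.20% in bin 1 to 53.5% in bin 10; Msh6, Brpf1 and Phf1 are at 100% from bin 3 on, and Mtf2 is at 0% in bins 4 to 9.

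Each span was cut into 10 equal bins, of which the outermost at the 5′ end was bare in Hdgfl2, Brpf1, Phf1 and Morf4l1, covered over 60.7% in Msh6 and 60.1% in Glyr1, and over 97.7% in Mtf2. Mtf2 was thus the one gene of the 7 with more coverage in its first bin than in its last, 95.4%. Over marked genes of at least 5 kb the mean coverage was 8.20% in bin 1, 42.1% in bin 5 and 53.5% in bin 10. Phf1 is shorter than 5 kb and is not part of that mean.

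The promoters of marked and unmarked readers are set side by side because the peaks begin next to them and 2 of the genes have no peak at all. The 250 bases before the start are printed 5′ to 3′ in the direction of transcription, from RefSeq GRCm38.p6, with each CpG in capitals. Msh6 is the most covered gene, Mtf2 has the peak closest to its outermost start, and Phf19 and Zmynd11 are the uncovered ones. Mtf2 has 2 listed starts, the second of which lies in the bare stretch of the gene, and the first is given. For Zmynd11, which has 4, the window with the most CpG is given. They lie at chr17:87974800-87975049 (plus strand), chr5:108065424-108065673 (plus), chr2:34913977-34914226 (minus) and chr13:9764471-9764720 (minus).
Msh6: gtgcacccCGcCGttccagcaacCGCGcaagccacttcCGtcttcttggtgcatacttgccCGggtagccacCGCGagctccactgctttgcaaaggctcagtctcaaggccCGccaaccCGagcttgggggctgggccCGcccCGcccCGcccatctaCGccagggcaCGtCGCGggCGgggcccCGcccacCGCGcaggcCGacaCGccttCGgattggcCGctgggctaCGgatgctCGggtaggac
Mtf2: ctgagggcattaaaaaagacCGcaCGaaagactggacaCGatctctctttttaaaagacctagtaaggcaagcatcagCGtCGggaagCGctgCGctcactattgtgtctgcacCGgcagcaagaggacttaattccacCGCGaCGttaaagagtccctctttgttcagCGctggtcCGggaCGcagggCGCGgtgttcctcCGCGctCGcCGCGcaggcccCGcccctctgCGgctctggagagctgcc
Phf19: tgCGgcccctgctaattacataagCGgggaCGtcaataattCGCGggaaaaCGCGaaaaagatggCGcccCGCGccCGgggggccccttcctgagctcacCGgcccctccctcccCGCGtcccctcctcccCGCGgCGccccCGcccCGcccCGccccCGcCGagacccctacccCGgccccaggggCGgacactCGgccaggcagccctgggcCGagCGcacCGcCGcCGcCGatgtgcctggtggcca
Zmynd11: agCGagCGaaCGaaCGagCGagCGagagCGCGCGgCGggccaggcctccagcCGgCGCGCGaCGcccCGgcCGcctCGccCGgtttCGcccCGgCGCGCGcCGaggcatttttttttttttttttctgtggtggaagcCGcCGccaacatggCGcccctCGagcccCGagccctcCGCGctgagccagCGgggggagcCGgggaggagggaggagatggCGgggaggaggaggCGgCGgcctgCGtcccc

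These 250 bases held 27 CpG in Msh6, 23 in Mtf2, 31 in Phf19 and 38 in Zmynd11. In windows of 300 bases, which take in the first 50 transcribed bases, 13 listed starts of 9 readers had a median of 30 CpG, and all 32851 promoters in the table had a median of 7. The windows of the uncovered genes Phf19 and Zmynd11 printed here held more CpG than 95.05% and 98.8% of promoters, and Msh6 held more than 94.4%. The other 3 windows of Zmynd11 held 9 (at its outermost start), 31 and 41 CpG, and the window of the second Mtf2 start held 2. Zmynd11 and Mtf2 thus enter the median of 30 more than once. The printed windows of Phf19 and Zmynd11 lie inside the RefSeq spans, which reach further upstream. None of the 13 windows touched a control peak, compared with 2.27% of all promoters. The letters TATAAA, searched on both strands, were in 0 of the 13 and in 13.6% of all promoters.

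The deposited lists give no tag count outside peaks, so the mark left at the readers in knockdown could not be measured below the caller's threshold. Summed over the peaks of each gene, the 8 marked genes held 1.56 (Psip1) to 1.92 (Brpf1) TPKM in control, and 96.2% to 99.4% of the peaks that were called in knockdown were sparser than that. At the depth of the knockdown library such densities correspond to 46.0 to 56.5 tags per kb, and the median knockdown peak had 36.7. These comparisons set sums over the peaks of a gene against single peaks. Scaling to kept tags corrects for depth alone, so it does not put the 2 ChIPs on a common scale of mark. Single reader peaks ranged from 1.07 to 1.92 TPKM, and 4 of the 22, in Hdgfl2 and Morf4l1, were sparser than the median knockdown peak at 1.25. The local background in knockdown enters the caller's decision and is not given for these genes, and whether mark remained below the threshold was not tested.

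**Figure D4:**
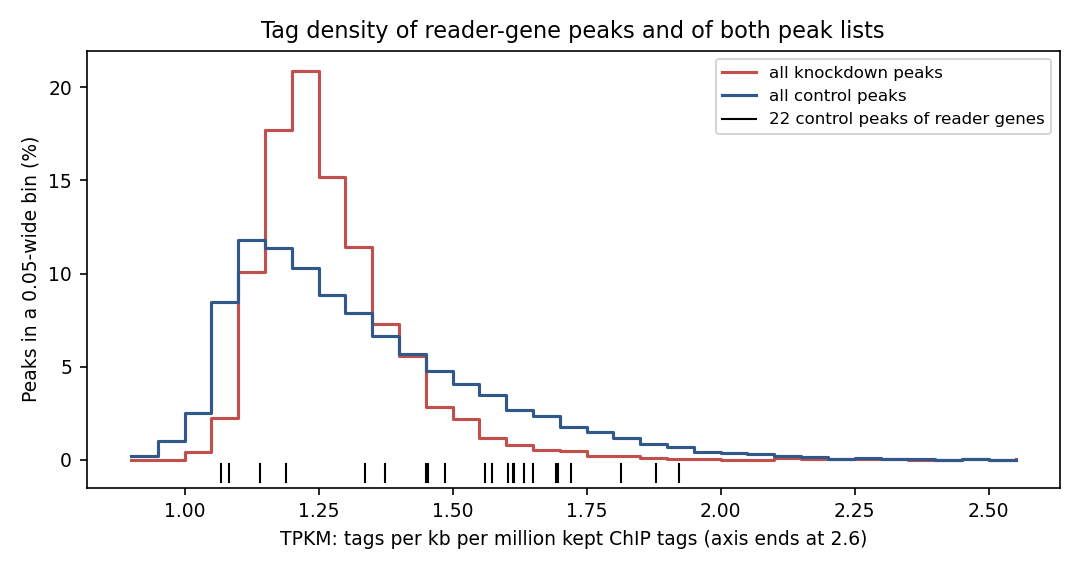
Distribution of tag density, in TPKM, over all 3040 knockdown and all 30634 control peaks (lines, percent of peaks in bins of 0.05), with a black tick for each of the 22 control peaks of the readers. The ticks run between 1.07 and 1.92, and most lie to the right of the knockdown list's median of 1.25. The axis ends at 2.6, and the few denser peaks, up to 4.28 in knockdown and 5.66 in control, are not drawn.

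No knockdown peak lay within 5 kb of any of the 10 genes, and the nearest was 117 kb (Phf19) to 1753 kb (Morf4l1) away, with a median of 335 kb. Over all protein-coding genes the median distance was 254 kb, with quartiles of 73.7 and 725 kb, and the readers' median lay between these quartiles. Over genes with a control peak the median was lower, 148 kb, with quartiles of 35.1 and 399 kb. All 10 readers lay over 100 kb from a knockdown peak, as did 69.4% of all protein-coding genes and 58.3% of marked genes. The difference was not tested. The 100 kb limit was not planned and lies just below the readers' smallest distance, 117 kb. Both comparison sets include genes that hold a knockdown peak themselves, at a distance of 0. In control, 8 further peaks lay within 5 kb outside the spans, next to 6 of the 10 genes. Peaks within 5 kb were counted for the 10 readers only, so no share over all genes stands beside these counts.

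The proteins work in complexes, and the partner genes were compared by counts and covered shares, without a test. Of the 10 readers, 0 had a knockdown peak and 8 a control peak; of 11 other genes for PWWP proteins, 4 had a knockdown peak and 10 a control peak. Over all protein-coding genes the shares were 4.95% in knockdown and 41.2% in control. The difference between the lists was not tested. The 4 were Pwwp3a, whose protein acts in the DNA damage response (9.37% of its length in knockdown, 92.8% in control), Dnmt3b, a de novo DNA methyltransferase (5.08% in knockdown, 45.8% in control), Brd1, the MOZ and HBO1 complex scaffold (3.53% in knockdown, 50.4% in control), and its relative Brpf3 (2.84% in knockdown, 70.4% in control). The knockdown coverage of these 4 genes was below 10% in each.

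Of the 8 PRC2 partners of the Polycomb-like proteins, 1 had a knockdown peak and 7 a control peak. It was the core subunit gene Suz12, with 6.60% of its length covered in knockdown and 92.4% in control. Among the 6 partners of Brpf1, 2 had knockdown peaks and 6 control peaks, and these were the acetyltransferase genes Kat7 (8.54% in knockdown, 85.1% in control) and Kat6b (0.645% in knockdown, 42.9% in control). In the Psip1 and MLL list Kmt2a, the MLL methyltransferase, had 1.93% covered in knockdown and 64.8% in control, and the gene of highest control coverage was Men1, which encodes menin (0% in knockdown, 74.1% in control).

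The 11 partners of Morf4l1 had no knockdown peak, and 9 had a control peak, with the TIP60 acetyltransferase gene Kat5 highest (0% in knockdown, 75.9% in control). Writers of H3K36 methylation had a knockdown peak in 1 of 6 cases (Nsd1, 1.54% in knockdown and 34.4% in control) and a control peak in all 6. Of the 7 erasers none had a knockdown peak and 6 had a control peak, led by Riox1 (0% in knockdown, 76.9% in control). Over the 51 partner genes of these lists, 9 had a knockdown peak and 46 had a control peak, so that 19.6% of the marked partners (95% Clopper-Pearson interval 9.36 to 33.9) had a knockdown peak, and 10.6% of all marked genes. The median control coverage was 79.4% for the readers and 41.4% for the partners. The median gene length was 22080 bp for the readers and 42004 bp for the partners.

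**Figure D5:**
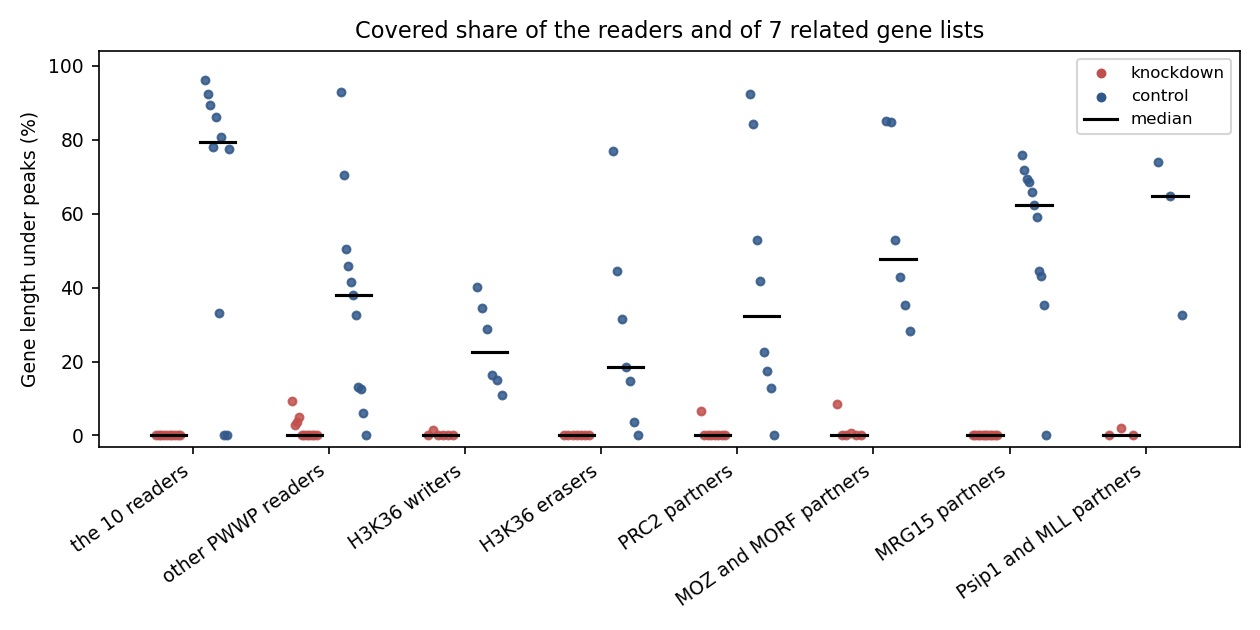
Percent of gene length under peaks for the 10 readers and the genes of 7 related lists, knockdown points left of control points, with a bar at each median. All knockdown medians are 0, the highest knockdown point is Pwwp3a at 9.37%, and the readers' control median of 79.4% lies above those of the 7 lists, 18.5% to 64.8%.

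The genes most like Msh6 were sought among protein-coding genes free of any overlap with another such gene and without a Gm or Rik symbol, by gene length, knockdown and control coverage and control tag density, each in units of its SD over marked genes. The 3 nearest were Anapc2, a subunit gene of the anaphase-promoting complex (0% of its length in knockdown and 94.4% in control), Phb, which encodes prohibitin (0% in knockdown, 92.7% in control), and Tomm40, the mitochondrial import channel gene (0% in knockdown, 94.5% in control). Their distances from Msh6 over these 4 measures were 0.163, 0.173 and 0.175 in SD units. Msh6 measures 15843 bp and the 3 genes 13451 to 14130 bp. Msh6 held 61.4 tags per kb in control peaks, and the 3 genes 60.1 to 61.8. Length, coverage and density were used to pick the 3 genes, so their closeness to Msh6 follows from the choice.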

How the data were processed

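Per the labels, H3K36me3 ChIP and input DNA of mouse embryonic stem cells were sequenced, 2 libraries for each of the 4 groups; whether the numbered replicates were separate cultures is not stated. Reads passed through FastQC 0.11.5 and Bowtie 1.1.2 on build mm10, per the submitters' processing notes. Peak calling by the authors used MACS 1.4.2, per the file headers, on merged replicates against merged inputs (p cutoff 1e-05, 1 tag kept per position, larger library scaled to the smaller, local background over 1000 and 10000 bp). For reads with several matches no rule is given in the sources used here.

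The deposited tables give for each peak the authors' count of tags, a score (the caller's p-value as minus 10 times its log10), a fold over local background and an FDR in percent. Scores, folds and FDR are the authors' own. Duplicate removal took 23.9% of ChIP tags in knockdown and 14.7% in control. The deposited BED files leave out 79 knockdown and 39 control peaks, none of them over the readers, and repeat the authors' fold.

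Gene spans came from RefSeq GRCm38.p6. Transcript starts and strands came from its promoter table (outermost start; Psip1 has no entry). Covered share is the percent of the span under peaks; tags per kb were scaled to 1000000 kept ChIP tags (TPKM). No filter on low values was applied. Intervals are exact 95% intervals for counting error only, Poisson for tag densities and Clopper-Pearson for shares of genes. As a rule of thumb, 3 counts set the limit for a count of 0. Merged lists allow no test between conditions. Python 3.11.15, pandas 2.3.3 and scipy 1.17.1 were used, and the interval counting was checked on simulated data. The readers, partner lists and rules were chosen with earlier results of these data known. The rule for named genes takes the 10 readers, genes sharing their peaks, each list's gene of highest control coverage and its genes with a knockdown peak, and the 3 genes most like the reader of highest control coverage. 1 planned partner list is not reported here. The alternatives varied the peak threshold, the rule for a peak in a gene, the span and the scaling.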

Additional observations from a re-analysis of the deposited data

How the results depend on the processing

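Of the alternatives run, 2 had a looser rule, namely counting any peak with at least 1 bp inside the span and extending spans by 5 kb. Both left the number of readers with a knockdown peak at 0. That followed from the main result, because the nearest knockdown peak lay 117 kb from any reader. The other 5 cannot raise the number of readers with a knockdown peak either: at least 50% of a peak inside the span, only peaks of score 100 or more, of FDR 1% or less or of FDR 5% or less (chosen after seeing the data), and a control list cut to its 3040 top-scoring peaks. The number with a control peak was 8 under 6 of the 7 and 6 with the shortened control list, in which Msh6 and Phf1 had none. With the shortened list the median control coverage was 29.5% in place of 79.4%, because fewer control peaks entered; with extended spans it was 62.8%. Extended spans lowered the control coverage of 7 readers and raised that of 1. The summed density of the readers' control peaks, 1.65 TPKM, was 59.9 tags per kb without scaling and 1.41 when scaled to all ChIP tags before duplicate removal, and the median over peaks was 1.59. No paired analysis was possible because both replicates were merged before peaks were called, and no replicate could be left out for the same reason. Depth limits the knockdown result: mark below the caller's threshold is not in the lists.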

Other observations

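The caller's score and the tag density ranked the readers' peaks differently. The single peaks of Msh6 and Brpf1 held the same number of tags, 1124, over 18309 and 16137 bp, but scores in the authors' table of 314 and 884, which rank 7030 and 888 among 30634 control peaks. Within Glyr1 the densest peak, at 1.81 TPKM, had a score of 342, and the neighbouring one, at 1.70, a score of 885. These pairs were chosen after their values were seen, and the cause was not tested.

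Over all marked protein-coding genes, the share that also had a knockdown peak did not change in 1 direction with control coverage. It was 12.4% of the 1779 genes covered over less than 10% in control, 5.65% of the 849 genes covered over 40% to 50%, and 32.2% of the 311 genes covered over 90% or more. Msh6 and Glyr1 belong to the last class and had no knockdown peak. These classes were set after the data had been seen and were not tested.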
